A study of Rattus norvegicus with 20 samples.

Results

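Rats that drank antibiotics together with short-chain fatty acids were compared with rats that drank water, by RNA sequencing of the nucleus accumbens. The comparison uses the 5 libraries labelled with both agents (Abx_SCFA) and the 5 labelled as water controls (H2O), 10 of the 20 libraries of the series. All were taken by their treatment label. The other 10 are 4 libraries of rats given antibiotics alone (Abx) and 6 of rats given short-chain fatty acids alone (SCFA). Every rat of the series was a wild-type male Sprague-Dawley that had self-administered cocaine, was 7 to 9 weeks old and was housed 2 to a cage, so that cocaine and strain are shared by all groups. The labels used here name neither the antibiotics nor the fatty acids, nor their doses or the length of drinking. The question the design poses is whether accumbens expression under antibiotics, with the fatty acids given alongside, differs from that of rats on water.

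The nucleus accumbens is the ventral part of the striatum, where dopamine from the midbrain meets cortical input. Most of its neurons are medium spiny neurons, inhibitory projection cells that carry either the D1 or the D2 dopamine receptor. Short-chain fatty acids (acetate, propionate and butyrate) are made by gut bacteria from fibre and enter the blood. They act on the receptors Ffar2 and Ffar3, are carried across membranes by monocarboxylate transporters and, in the case of butyrate, inhibit histone deacetylases.

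The rat numbers in the library titles set the groups apart. By the first digit of the rat number, water replicates 1 and 2 belonged to number series 2 and water replicates 3, 4 and 5 to series 3, while all Abx_SCFA rats belonged to series 4. Treatment and number series therefore cannot be told apart. Total counts ran from 18223766 to 22235777 in H2O and from 18375538 to 25731636 in Abx_SCFA, and 3 counts, the most that a count of 0 allows, came to between 0.117 and 0.165 CPM (counts scaled to a common library size) in these libraries. Library sizes for CPM were scaled by the TMM method of edgeR. The libraries held a marker of striatal tissue, Drd1, the D1 receptor gene. It had 411, 511, 379, 411 and 321 CPM in H2O and 371, 362, 385, 437 and 342 CPM in Abx_SCFA. Drd1 does not tell the accumbens from other parts of the striatum. A bulk sample cannot tell fewer cells of a type from less RNA per cell. In a principal component analysis of the 10 libraries, the first component held 30.8% of the variance. H2O replicates 1 to 4 lay between -26.5 and -10.9 on it and the Abx_SCFA libraries between 3.7 and 18.5, while H2O replicate 5 lay at 15.9, among the Abx_SCFA libraries.

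No gene passed the test between the 2 groups. The quasi-likelihood test of edgeR called 0 of 12846 genes (0%) at a Benjamini-Hochberg adjusted p below 0.05, with a smallest adjusted p of 0.815, and limma-voom called 0. At an unadjusted p below 0.05 edgeR had 714 genes, 269 with higher values in Abx_SCFA (2.09% of all tested) and 445 with lower values (3.46%). DESeq2 called 1 gene, Rgcc. In 86 genes (0.669%) all 5 Abx_SCFA libraries stood above all 5 water libraries, and in 97 (0.755%) all stood below. All names below are therefore a description of where the values lay, and p-values are edgeR's without adjustment unless another test is named. An exact two-sided permutation test of 5 against 5 libraries cannot go below p = 0.00794, and every gene described below as not overlapping reaches that value. Groups that do not overlap always give it, so it adds nothing to the lack of overlap.

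The genes with the smallest p on the higher side began with Rgcc, which encodes a regulator of cell cycle kinases that is also active in endothelial cells. Its water libraries held 40.3, 39.2, 33.2, 33.0 and 39.8 CPM and its Abx_SCFA libraries 45.9, 42.5, 55.1, 53.5 and 46.4 CPM. The groups did not overlap, and the log2 fold change was 0.39 ± 0.079 (SE; 95% interval 0.23 to 0.56, adjusted p = 0.815 by edgeR). Slc52a3, a riboflavin transporter gene, had 6.07, 5.04, 4.52, 4.1 and 6.1 CPM in H2O and 6.64, 7.2, 8.05, 7.58 and 8.91 CPM in Abx_SCFA. Again every treated library lay above every water library (0.57 ± 0.16, SE). Thap7, a chromatin-associated zinc finger gene, and Pla2g15, the lysosomal phospholipase A2 gene, showed small shifts of 0.22 ± 0.063 and 0.20 ± 0.059 that also left no overlap, with water libraries of Pla2g15 between 20.5 and 22.9 CPM and Abx_SCFA libraries between 23.8 and 26.1. Zfp385a, a zinc finger gene, ranged from 56.5 to 64.1 CPM in H2O and from 66.4 to 74.4 CPM in Abx_SCFA, and Lurap1l stood at 3.33 ± 0.248 and 4.87 ± 0.409 CPM (SD, n = 5 each). Rex1bd overlapped between the groups, with a highest water library of 27.0 CPM and a lowest Abx_SCFA library of 26.3.

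**Figure D1:**
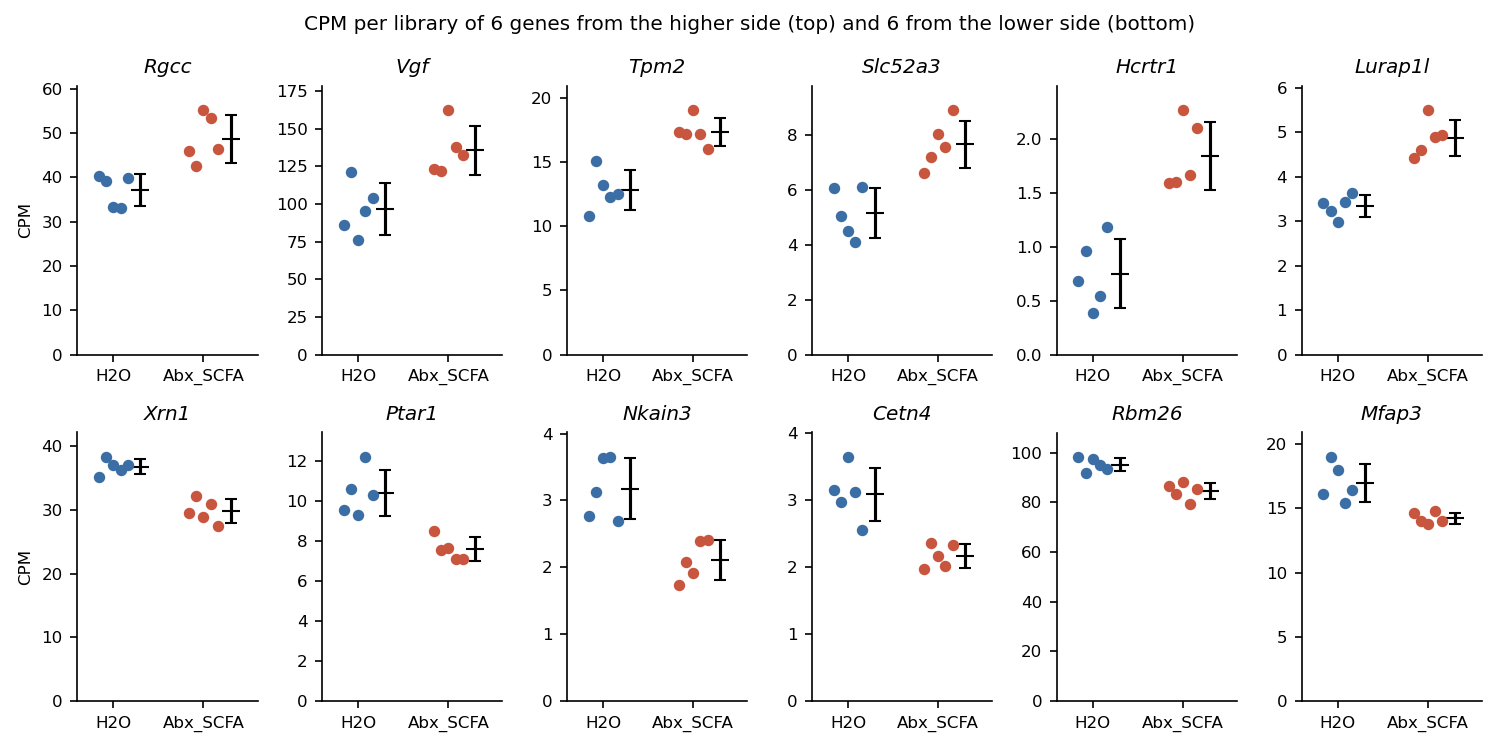
CPM of each library (points, in order of replicate) for 6 genes with higher values in Abx_SCFA (top row) and 6 with lower values (bottom row), with the mean and SD of 5 libraries beside them and axes from 0. In each of the 12 panels the 5 Abx_SCFA points lie wholly above or wholly below the 5 H2O points, yet none of these genes passed the edgeR test after adjustment. The genes were picked from those with the smallest p, and Rex1bd, Erap1 and Ttc14, which overlapped, have no panel. Over all genes tested, 0.669% lay wholly above and 0.755% wholly below.

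The secreted neuronal peptide gene Vgf, whose product is cut into signalling peptides and which neurons switch on when they are active, belonged to the same group. It is described with the immediate early and activity-regulated genes, which respond to synaptic activity through the transcription factors CREB and SRF. CREB binds the cAMP response element and SRF the CArG box. The 250 bases before the RefSeq transcription start are shown for Vgf and for Dusp5, a phosphatase gene that limits ERK signalling, because these were the 2 members of the list with p below 0.05. They come from the GRCr8 assembly, which is not the build of the authors' counts. In Vgf (chr12:25277021-25277270, minus strand) capitals mark the cAMP response element TGACGTCA, at positions -90 to -83 from the start, and the E-box CACGTG, at -65 to -60. In Dusp5 (chr1:262543524-262543773, plus strand) they mark 2 adjacent CArG boxes, at -82 to -73 and -72 to -63.
Vgf: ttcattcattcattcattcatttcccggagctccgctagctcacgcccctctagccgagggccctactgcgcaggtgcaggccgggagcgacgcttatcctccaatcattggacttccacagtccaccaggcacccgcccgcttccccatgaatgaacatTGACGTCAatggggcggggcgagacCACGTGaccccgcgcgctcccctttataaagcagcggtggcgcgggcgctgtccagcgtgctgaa
Dusp5: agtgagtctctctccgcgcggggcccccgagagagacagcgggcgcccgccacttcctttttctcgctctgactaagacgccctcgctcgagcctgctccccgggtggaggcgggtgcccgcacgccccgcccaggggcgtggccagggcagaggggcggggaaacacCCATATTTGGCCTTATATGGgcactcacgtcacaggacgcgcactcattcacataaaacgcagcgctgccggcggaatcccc

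Searched on both strands (each motif reads the same on both), the cAMP response element TGACGTCA was present in 275 of 9469 such promoters of tested genes (2.9%) and in 6 of the 30 promoters matched from the activity-regulated list (20%), namely those of Btg2, Dusp1, Ier2, Jund, Scg2 and Vgf. The CArG box was present in 104 of 9469 (1.1%) and in 3 of the 30 (10%), those of Dusp5, Egr1 and Egr2. The E-box CACGTG was present in 757 of 9469 (7.99%) and in 6 of the 30 (20%), those of Dusp1, Gadd45b, Gadd45g, Ptgs2, Rheb and Vgf. Among the 184 promoters matched from genes with p below 0.05 and higher values, 3 held the cAMP response element (1.63%) and 4 the CArG box (2.17%). In the same 184 promoters 14 held the E-box (7.61%), near its share among all tested genes. A match describes these letters and shows no binding.

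Vgf held 85.9, 121, 76.0, 95.6 and 104 CPM in H2O and 123, 122, 162, 138 and 133 CPM in Abx_SCFA. The highest water library, replicate 2, lay just under the lowest Abx_SCFA libraries, and the log2 fold change was 0.49 ± 0.11 (SE). Dusp5 held 5.65, 7.91, 5.02, 3.7 and 6.71 CPM in H2O and 8.66, 9.33, 8.01, 9.59 and 7.88 CPM in Abx_SCFA. Only H2O replicate 2 reached the Abx_SCFA range (0.58 ± 0.21). Of the 40 activity-regulated genes tested, 32 had positive log2 fold changes, 2 had p below 0.05 in the higher direction (5%, against 2.09% of all genes) and 0 in the lower, and the median was 0.11 against -0.0071 over all genes. The classical early gene Fos stood at 25.3 ± 6.33 CPM in H2O and 30.2 ± 2.23 CPM in Abx_SCFA (SD), with overlapping libraries. Nptx2, which clusters AMPA receptors and is induced by activity, did not overlap between groups (30.4 ± 6.01 and 47.6 ± 7.01 CPM, SD) but edgeR gave 0.65 ± 0.35 (SE). Bdnf, a neurotrophin that reaches the accumbens mainly from cortical neurons, had 0.105, 0.906, 0.11, 0.361 and 6.05 CPM in the water libraries and 3.8, 6.77, 5.11, 11.5 and 5.39 in the Abx_SCFA libraries, so that H2O replicate 5 lay within the Abx_SCFA range. When the score of the cortical neuron genes was added to the model, Vgf remained positive, as it did under all 24 alternatives (0.35 to 0.61), Fos turned to -0.30, and 14 of the 40 genes were positive with a list median of -0.14. With 1 library left out, the members at p below 0.05 numbered 2 to 6, with 6 without H2O replicate 5.

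Of the 16 tested genes for dense-core vesicles and prohormone processing, the organelle and enzymes that store and cut Vgf, 9 were positive and the median was 0.03. Vgf was the only member with p below 0.05 (6.25%, against 2.09% of all genes on the higher side). Ptprn, a dense-core vesicle membrane protein gene, stood at 723 ± 76.8 CPM in H2O and 797 ± 62.0 CPM in Abx_SCFA (SD; 0.14 ± 0.09, SE). The neuropeptide and peptide receptor genes had 24 of 29 positive and a median of 0.19. In the higher direction 2 had p below 0.05 (6.90%, against 2.09% of all genes). One was Hcrtr1, the orexin 1 receptor gene, low but above the count floor in each library. It had 0.680, 0.957, 0.386, 0.541 and 1.18 CPM in H2O and 1.59, 1.6, 2.26, 1.66 and 2.1 CPM in Abx_SCFA. The groups did not overlap, the fold change was 2.45 and the log2 fold change 1.29 ± 0.38 (SE; 95% interval 0.49 to 2.09). The other was Cck, the cholecystokinin gene, with 6.69, 16.6, 5.46, 7.08 and 91.9 CPM in H2O and 47.8, 82.2, 69.3, 142 and 87.6 CPM in Abx_SCFA. Its H2O replicate 5 again fell among the Abx_SCFA libraries.

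Genes of blood vessels formed the list with the most even direction on the higher side. Of 30 tested genes of endothelium, pericytes and smooth muscle, 29 had positive log2 fold changes, 7 had p below 0.05 in the higher direction (23.3%, against 2.09% of all genes) and 0 in the lower, and the median was 0.16. Its summed level ran from 1389 to 1507 CPM in H2O and from 1474 to 1783 CPM in Abx_SCFA. In the contractile wall, Tpm2, a muscle tropomyosin gene, had 10.8, 15.1, 13.2, 12.3 and 12.5 CPM in H2O and 17.3, 17.2, 19, 17.2 and 16 CPM in Abx_SCFA. All treated libraries were above all water libraries (0.44 ± 0.11, SE). Acta2, smooth muscle actin, stood at 19.6 ± 6.34 and 30.2 ± 8.03 CPM (SD, H2O and Abx_SCFA) and overlapped. Myl9, a myosin light chain gene, was at 0.29 ± 0.11 on the log2 scale, and Tagln, an actin-binding smooth muscle gene, at 0.50 ± 0.21.

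In the endothelium, Esam, an adhesion molecule of endothelial junctions, had 28.2, 28.4, 26.4, 25.1 and 29.1 CPM in H2O and 30.0, 30.3, 31.6, 29.4 and 37.9 CPM in Abx_SCFA. The gap between the groups was narrow, with 29.1 the highest water and 29.4 the lowest treated value (0.21 ± 0.088). Cldn5, the tight junction claudin of brain endothelium, overlapped, with 151, 130, 116, 136 and 133 CPM against 152, 139, 170, 140 and 181 CPM (0.23 ± 0.10). Flt1, a VEGF receptor gene, did not overlap (160 ± 5.59 and 179 ± 10.7 CPM, SD) with 0.16 ± 0.093 by edgeR. Blood-brain barrier junction and transport genes as a whole were mixed, with 12 of 21 positive and a median of 0.02. Abcc4, an efflux pump gene, and Slc7a5, the large amino acid transporter gene, were at 0.24 ± 0.097 and 0.17 ± 0.077, while Tjp1, which encodes the junction scaffold ZO-1, was at -0.14 ± 0.065. With each library left out in turn, 27 to 30 of the 30 genes were positive. The number with p below 0.05 was 3 after removal of H2O replicate 1, of H2O replicate 4 or of Abx_SCFA replicate 3. It was 4 after removal of Abx_SCFA replicate 1, and 2 when H2O replicate 4 went together with Abx_SCFA replicate 5.

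Meningeal fibroblast genes, whose cells cover the surface of the brain and follow its large vessels, had 13 of 15 positive and the same median of 0.16. In the higher direction 3 had p below 0.05 (20%, against 2.09% of all genes). Slc22a6, an organic anion transporter gene, had 0.837, 0.352, 0.496, 0.406 and 0.662 CPM in H2O and 1.16, 0.64, 1.02, 1.17 and 1.11 CPM in Abx_SCFA. Dcn, the matrix proteoglycan decorin, stood at 7.67 ± 0.879 and 9.33 ± 0.919 CPM (SD), and Islr at 3.44 ± 0.445 and 4.33 ± 0.890. The summed level of the list had the opposite direction: its median was 317 CPM for H2O, between 268.1 and 356.2, and 274 CPM for Abx_SCFA, between 246.1 and 403.5. Ptgds, a member that oligodendrocytes also make, stood at 167 ± 28.2 CPM in H2O and 139 ± 48.7 CPM in Abx_SCFA (SD). The part of vessel and meningeal content in the single gene values above was not tested. Haemoglobin gene Hbb, a sign of retained blood, overlapped fully, at 119 ± 58.9 and 135 ± 20.2 CPM (SD).

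**Figure D2:**
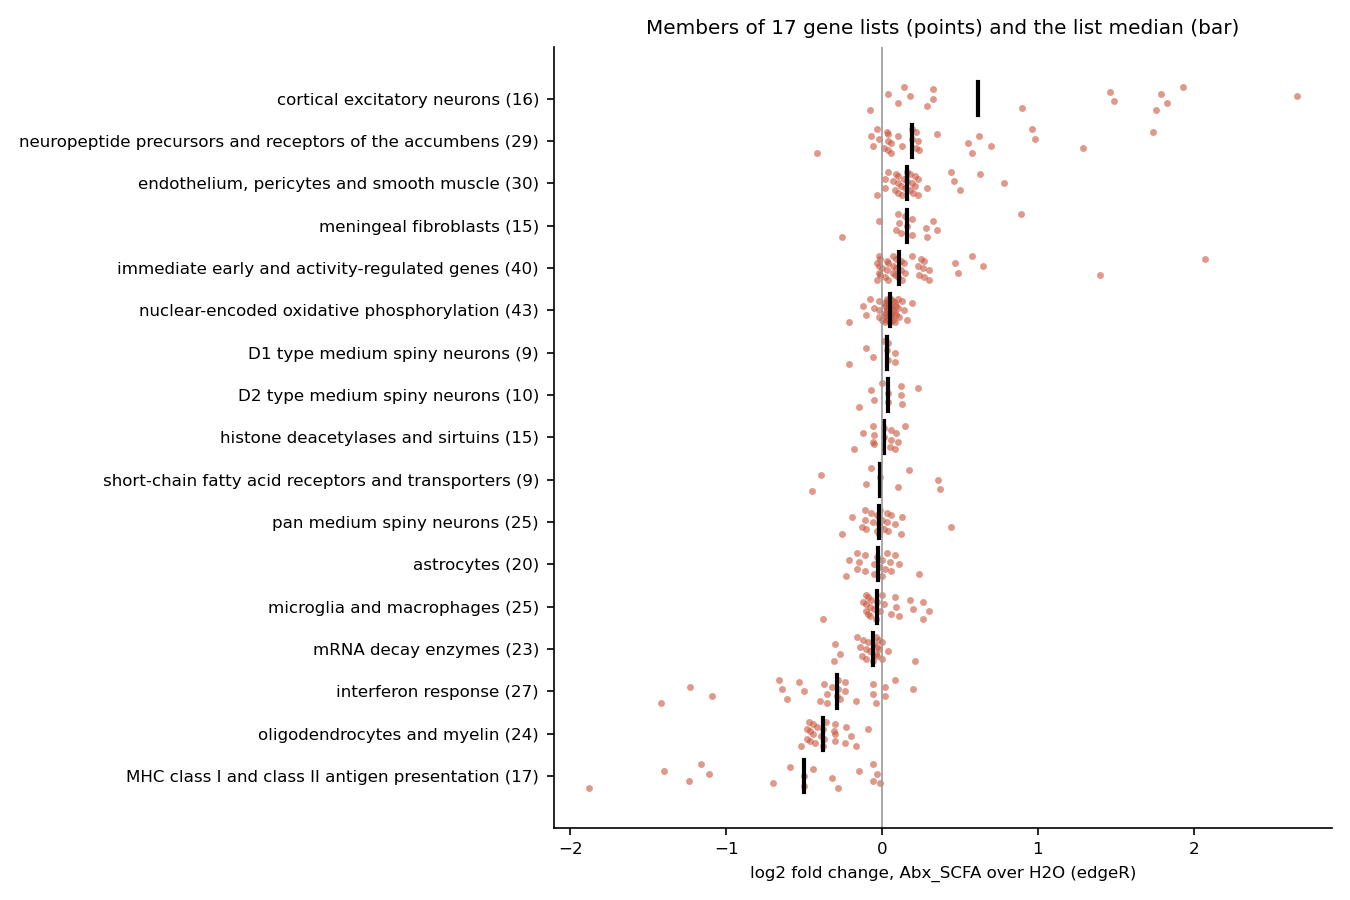
Log2 fold changes of Abx_SCFA over H2O for the tested members (points) of 17 gene lists, with the median of each list as a bar and the number of members in brackets. The vascular points sit almost wholly above 0, the myelin and MHC points wholly below it, and the lists of medium spiny neurons and histone deacetylases are centred near 0.

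On the lower side the gene with the smallest p was Xrn1, the cytoplasmic exonuclease that degrades decapped messenger RNA from its 5′ end. The water libraries held 35.1, 38.3, 37.1, 36.3 and 37.0 CPM and the Abx_SCFA libraries 29.5, 32.2, 28.9, 30.9 and 27.4 CPM. The groups were well apart relative to their spread (-0.30 ± 0.065, SE; adjusted p = 0.815 by edgeR), and the value lay between -0.33 and -0.27 under all 24 alternatives. The mRNA decay list, which holds Xrn1, was chosen with earlier results of these data known, as were all lists, and was not tested. Of its genes, 19 of 23 had negative log2 fold changes and the median was -0.06. In the lower direction 7 had p below 0.05 (30.4%, against 3.46% of all genes). Beside Xrn1 these were Dcp2, the decapping enzyme that acts just before it (-0.31 ± 0.12), Dis3, a catalytic subunit of the exosome (-0.16 ± 0.061), and 4 members of the CCR4-NOT deadenylase, which shortens poly(A) tails. The deadenylase genes were Cnot6l (-0.27 ± 0.089), Cnot6 (-0.14 ± 0.069), Cnot8 (-0.13 ± 0.055) and its scaffold Cnot1 (-0.12 ± 0.051). Dcp2 had 8.52, 11, 8.76, 9.55 and 8.37 CPM in H2O and 7.27, 8.16, 7.24, 8.32 and 6.31 CPM in Abx_SCFA, which left no overlap. Zfp36, which recruits the deadenylase to AU-rich messages, was at 0.21 ± 0.14. The number of members with p below 0.05 in the lower direction was 3 without Abx_SCFA replicate 5 and 4 without H2O replicate 2 or 3. It was 2 when Abx_SCFA replicate 5 was dropped along with H2O replicate 4, while 17 to 20 of the 23 stayed negative with each library left out.

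The genes of the lower side given next belonged to no list, except Tekt1, which was named through its list. Ptar1, a prenyltransferase subunit gene, had 9.57, 10.6, 9.32, 12.2 and 10.3 CPM in H2O and 8.52, 7.57, 7.67, 7.09 and 7.08 CPM in Abx_SCFA (-0.45 ± 0.10, SE). Nkain3, which encodes a sodium pump-interacting protein, had 2.77, 3.12, 3.64, 3.65 and 2.69 CPM against 1.73, 2.08, 1.92, 2.4 and 2.41 CPM (-0.59 ± 0.15). Cetn4, a centrin gene, had 3.14, 2.97, 3.64, 3.11 and 2.55 CPM against 1.97, 2.35, 2.17, 2.01 and 2.33 CPM (-0.51 ± 0.13). None of these 3 genes overlapped between groups, nor did Rbm26, an RNA-binding protein gene (95.2 ± 2.67 and 84.5 ± 3.3 CPM, SD), Mfap3 (17 ± 1.48 and 14.2 ± 0.459) and C17h6orf52 (2.76 ± 0.34 and 1.87 ± 0.242). Erap1, which trims peptides for MHC class I in the endoplasmic reticulum, and Ttc14 overlapped (-0.38 ± 0.099 and -0.22 ± 0.059). Tekt1, a tektin of motile cilia that marks ependyma, had 8.79, 6.95, 9.32, 7.89 and 7.04 CPM in H2O and 5.3, 5.07, 5.71, 5.82 and 5.16 CPM in Abx_SCFA. Its list, of ependyma and choroid plexus genes, had 5 of 12 members positive and a median of -0.36. Tekt1 (-0.56 ± 0.20, SE) was the 1 member at p below 0.05 (8.33%, against 3.46% of all genes on the lower side).

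Antigen presentation genes were lower on average in Abx_SCFA, but through 2 of the 5 water libraries. All 17 tested MHC class I and class II genes had negative log2 fold changes, and the median was -0.50. Of these, 5 had p below 0.05 (29.4%, against 3.46% of all genes on the lower side). Cd74, the class II invariant chain, held 88.3, 20.2, 39.5, 18.2 and 85 CPM in H2O and 25.7, 31.8, 16.2, 28.4 and 14.5 CPM in Abx_SCFA. H2O replicates 1 and 5 were high and the remaining water libraries lay within or near the Abx_SCFA range. The class II chain genes RT1-Db1 (12, 2.37, 5.9, 2.25 and 14.6 CPM in H2O, 2.1 to 4.21 in Abx_SCFA) and RT1-Bb (12, 0.403, 1.27, 1.13 and 7.85 in H2O, 0.256 to 2.13 in Abx_SCFA) had the same high libraries. MHC genes of the rat are near-identical copies, so that their counts may be split uncertainly. Without H2O replicate 1, 9 of the 17 genes were negative with a median of -0.06, and without both high libraries 12 were positive with a median of 0.12. The count at p below 0.05 was 0 without H2O replicate 1, 0 without H2O replicate 5, 1 without Abx_SCFA replicate 3, 1 without Abx_SCFA replicate 5 and 3 without Abx_SCFA replicate 1.

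Among 27 interferon response genes 23 were negative, and the median was -0.29. In the lower direction 3 had p below 0.05 (11.1%, against 3.46% of all genes). The GTPase genes Gbp2 and Gbp5, which interferon gamma induces, owed their negative values to H2O replicate 1. Gbp2 had 72.4 CPM there and 5.29 to 7.26 CPM in the other water libraries, against 5.32 to 11.8 in Abx_SCFA, and its log2 fold change went from -1.42 to 0.18 without that library. Gbp5 had 21.6 CPM there against 2.92 to 3.31 and 2.60 to 4.43, and went from -1.09 to 0.04. Without H2O replicate 1 the list had 16 of 27 positive and a median of 0.03. Isg15, a ubiquitin-like protein gene induced by type I interferon, differed from these: it had 3.24, 1.81, 2.81, 2.21 and 2.84 CPM in H2O and 1.83, 1.97, 1.66, 1.47 and 1.38 CPM in Abx_SCFA. Only H2O replicate 2 entered the treated range (-0.64 ± 0.19, SE), and the value was between -0.74 and -0.45 under the 23 alternatives that kept the gene. Lcn2, a siderophore-binding acute phase gene, was at 5.96 CPM in H2O replicate 1 and 1.91 to 2.52 in the other water libraries, against 1.57 to 2.50 in Abx_SCFA.

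Myelin genes had negative log2 fold changes in 24 of 24 members, with a median of -0.38, but 1 with p below 0.05 (4.17%, against 3.46% of all genes). Enpp2, the lysophospholipase autotaxin made by oligodendrocytes, had 198.1, 207.4, 287.6, 288.7 and 272.2 CPM in H2O and 239.1, 154.3, 168.8, 197.1 and 141.6 CPM in Abx_SCFA. Abx_SCFA replicate 1 lay among the water libraries, and H2O replicates 1 and 2 lay among the treated ones. Those 2 water rats are the ones of number series 2, and against them alone the list had 5 of 24 positive and a median of -0.07, in contrast to -0.54 against the 3 water rats of series 3. Mbp, myelin basic protein, stood at 8225 ± 1698 CPM in H2O and 7021 ± 1625 CPM in Abx_SCFA (SD) and turned to 0.08 against series 2. With only the 2 groups in the fit, 12 of the 24 genes were at p below 0.05, and 14 with quality weights, so that the count of 1 depends on how the spread is estimated. It was 0 to 4 with 1 library left out, with 4 without Abx_SCFA replicate 1. With the cortical score in the model the median was -0.15, 2 of 24 genes were positive and 0 had p below 0.05. Ugt8, which makes myelin galactolipids, and Aspa, which frees acetate from N-acetylaspartate for myelin lipids, were at -0.52 ± 0.26 and -0.39 ± 0.21. Oligodendrocyte precursor genes had 11 of 12 negative, a median of -0.13 and 0 with p below 0.05.

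Astrocyte genes were evenly divided, with 9 of 20 positive and a median of -0.02. Slc7a10, an astrocytic D-serine and glycine carrier gene, was at 0.24 ± 0.086 and Aqp4, the water channel of astrocyte endfeet, at -0.21 ± 0.097. Aqp4 had 761, 820, 934, 923 and 885 CPM in H2O and 737, 662, 718, 803 and 811 CPM in Abx_SCFA, with overlap. Gfap, the astrocyte filament gene, was at 643 ± 124 and 576 ± 116 CPM (SD). Microglial genes had 10 of 25 positive and a median of -0.03. Ptprc, the leukocyte phosphatase CD45, was at -0.38 ± 0.13, with 14.5, 9.06, 11.9, 10.7 and 11.1 CPM in H2O and 8.81, 10.6, 7.50, 8.42 and 8.68 in Abx_SCFA, whereas Aif1, a general microglial marker, was at 16.8 ± 2.37 and 18.2 ± 2.64 CPM (SD).

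**Figure D3:**
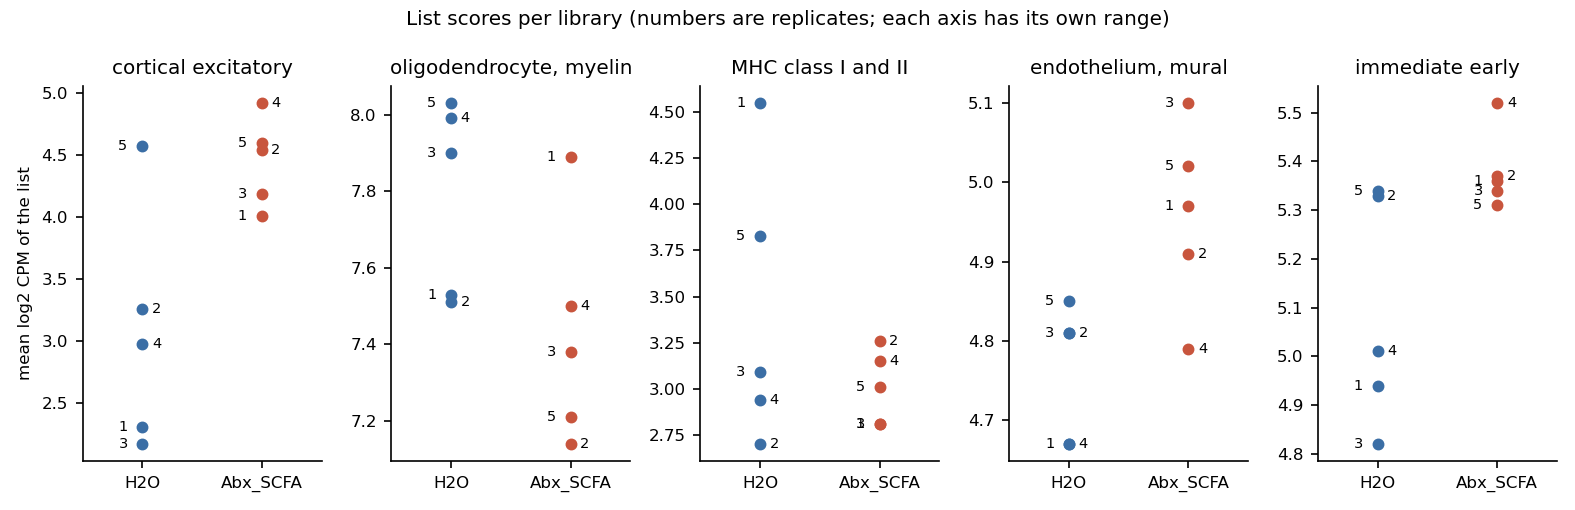
Mean log2 CPM of 5 gene lists in each of the 10 libraries, numbered by replicate. H2O replicate 5 sits at the Abx_SCFA level for cortical genes (4.57 against 4.01 to 4.92), H2O replicates 1 and 5 stand above all others for MHC genes (4.55 and 3.83 against 2.70 to 3.26), and myelin scores overlap.

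Markers of cortical excitatory neurons, cells that lie outside the accumbens, moved with the groups. Slc17a7, their vesicular glutamate transporter gene, had 3.29, 32.8, 3.09, 14.6 and 251.6 CPM in H2O and 132.4, 193.9, 155, 338.7 and 215.7 CPM in Abx_SCFA. The 4 low libraries were all water, and H2O replicate 5 was at the treated level. Over the list, 15 of 16 genes were positive with a median of 0.61, 2 with p below 0.05 (12.5%, against 2.09% of all genes), and its summed level ran from 748.7 to 1400 CPM in H2O and from 1001 to 1801 CPM in Abx_SCFA. The count at p below 0.05 was 0 after removal of H2O replicate 1, 2, 3 or 4 or of Abx_SCFA replicate 4, 1 after removal of Abx_SCFA replicate 2, and 8 after removal of H2O replicate 5 (median 0.94). It was 0 with only the 2 groups in the fit, 4 with DESeq2, 5 with limma-voom and 7 with quality weights. The number of positive genes was 15 of 16 with each library left out. Neurod6, a cortical transcription factor gene, had 11.1 CPM in H2O replicate 5, 0.418 to 1.71 in the other water libraries and 5.87 to 21.2 in Abx_SCFA, and Tbr1 had 35.5, 0.386 to 5.19 and 18.1 to 51.7 CPM in the same order. Neurod1 was at or under the count floor in 4 of 5 water libraries and at 0.426 to 1.42 CPM in Abx_SCFA. Slc17a6, the transporter of subcortical glutamate neurons, did not overlap, with 0.331 to 2.08 CPM in H2O and 2.29 to 6.26 CPM in Abx_SCFA. Its list, of septal, pallidal and hypothalamic genes, was mixed. Of 12 members 7 were positive and 5 negative, from -0.87 to 1.77, with a median of 0.13. In the higher direction 2 had p below 0.05 (16.7%, against 2.09% of all genes). The summed level of that list had a median of 84 CPM in H2O and 77.5 CPM in Abx_SCFA. The part of cortical neurons in Cck, Bdnf and Hcrtr1 was not tested beyond the covariate. Each of these genes remained positive with it and under every other alternative that kept the gene. The lowest values were 0.33 for Cck and 0.44 for Bdnf over 24 alternatives, and 0.55 for Hcrtr1 over its 23. With libraries left out the lowest values were higher, at 1.49, 1.77 and 1.14 in the same order.

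Medium spiny neuron genes were centred near 0 without a covariate, and their direction depended on the model. Of 25 shared markers 9 were positive, 0 had p below 0.05 and the median was -0.02, and the D1 and D2 marker lists had medians of 0.03 and 0.04 with 0 of 9 and 0 of 10 at p below 0.05. Against the water rats of series 2 alone 22 of the 25 shared markers were negative (median -0.12), and 19 were positive against those of series 3 (0.06). With the cortical score in the model 24 of the 25 were positive, 8 at p below 0.05, with a median of 0.25, and the D2 list had 10 of 10 positive, 5 at p below 0.05, with a median of 0.41. The D1 list then had 7 of 9 positive, 1 at p below 0.05 and a median of 0.23. That score nearly separates the groups, since 4 water libraries lay between 2.17 and 3.26 and the Abx_SCFA libraries between 4.01 and 4.92. Drd1 had a log2 fold change of -0.10 (95% interval -0.48 to 0.27) and Drd2, the D2 receptor gene, of 0.12 (-0.24 to 0.48). The opioid precursor genes Pdyn and Penk, markers of D1 and D2 neurons, were at 0.01 (-0.37 to 0.40) and 0.04 (-0.39 to 0.47). These intervals bound the difference but do not show that the groups are alike. The 1 shared marker whose groups did not overlap was Cnr1, the CB1 cannabinoid receptor gene, which spiny neurons and interneurons carry and cortical inputs also express. It had 81, 112, 84.6, 83.2 and 104 CPM in H2O and 116, 133, 115, 140 and 125 CPM in Abx_SCFA. The groups did not overlap, but edgeR gave 0.44 ± 0.23 (SE; 95% interval -0.04 to 0.92). Adding the cortical score to the model took the value to -0.14. Crhbp, which binds corticotropin-releasing factor and is made by interneurons, stood at 7.8 ± 1.49 and 11.3 ± 1.7 CPM (SD) and likewise turned, to -0.10. Of 18 striatal interneuron genes 12 were positive, with a median of 0.10. Cck was the 1 with p below 0.05 (5.56%, against 2.09% of all genes on the higher side). The mean log2 CPM of this list ran from 3.16 to 3.51 in H2O and from 3.62 to 3.73 in Abx_SCFA. Its summed level overlapped, at 344 to 429.3 and 409.5 to 527.9 CPM.

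Receptor and signalling genes gave small numbers in both directions, near the share among all genes. Of 30 glutamate receptor genes 16 were positive, with Cnih2, an AMPA receptor auxiliary subunit, at 0.19 ± 0.073, and the metabotropic receptor genes Grm3 and Grm5 at -0.32 ± 0.12 and -0.26 ± 0.12. Cnih2 was at 0.11 against series 2 alone and at 0.10 without H2O replicate 4 and Abx_SCFA replicate 5. Grm3 had 144, 161, 188, 199 and 180 CPM in H2O and 162, 122, 134, 150 and 129 CPM in Abx_SCFA. Among 26 genes of dopamine receptors and cAMP signalling 10 were positive, with Pde4a, a cAMP phosphodiesterase gene, at 0.25 ± 0.11 and Prkacb, a catalytic subunit of protein kinase A, at -0.21 ± 0.092. Of 21 GABA genes 0 had p below 0.05. Gad2, the synaptic GABA-making enzyme, stood at 316 ± 64.2 and 256 ± 28.4 CPM (SD) and turned to 0.04 with the cortical covariate.

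The genes through which short-chain fatty acids are known to act showed few differences. Of 15 histone deacetylase and sirtuin genes 9 were positive, 0 had p below 0.05 and the log2 fold changes spanned -0.18 to 0.15. Hdac1 had 34.9, 35.7, 32.4, 43.2 and 37.4 CPM in H2O and 36.7, 35.1, 32, 36.7 and 36.3 CPM in Abx_SCFA, a change of -0.06 with a 95% interval of -0.24 to 0.13. Hdac2 was at -0.06 (-0.19 to 0.07), Hdac8 at -0.18 (-0.40 to 0.04) and the mitochondrial desuccinylase gene Sirt5 at 0.08 (-0.01 to 0.18). Transcripts do not measure the activity of these enzymes. Ncoa2, a coactivator that recruits acetyltransferases, was at -0.16 ± 0.066, the 1 of 14 acetyltransferase and reader genes with p below 0.05 (7.14%, against 3.46% of all genes on the lower side). Of 15 histone and DNA methylation enzyme genes 12 were negative. The 1 with p below 0.05 (6.67%, against 2.09% of all genes on the higher side) was Kdm6b, which removes H3K27 methylation and, against the direction of most of its list, was at 0.21 ± 0.093.

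Of the fatty acid receptors, Ffar3 was at the limit of detection, with at most 3 counts in any of the 10 libraries, and was not tested. Ffar2, which in brain is mainly a gene of myeloid cells, had 0.628, 1.01, 0.386, 0.27 and 0.236 CPM in H2O and 0.385, 0.373, 0.213, 0.391 and 0.535 CPM in Abx_SCFA. At this level no difference was detectable (-0.39, 95% interval -1.27 to 0.49). Bsg, the chaperone that brings monocarboxylate transporters to the membrane, stood at 372.2 ± 37.1 CPM in H2O and 419.9 ± 27.4 CPM in Abx_SCFA (SD), with H2O replicates 1 and 2 inside the Abx_SCFA range. It was the 1 of 9 receptor and transporter genes with p below 0.05 (11.1%, against 2.09% of all genes on the higher side). Its log2 fold change was 0.17 ± 0.074 (SE). The transporter genes themselves, Slc16a1 of endothelium and glia and Slc16a3, were at -0.10 (95% interval -0.33 to 0.13) and 0.37 (-0.05 to 0.78). Slc16a3 was at 0.22 without H2O replicate 4, and at 0.04 against series 2 and 0.64 against series 3. In fatty acid metabolism 8 of 19 genes were positive. Bdh1, which interconverts ketone bodies, stood at 34.9 ± 1.01 and 37.8 ± 1.95 CPM (SD). Acot12, an acetyl-CoA hydrolase gene, had 0.471, 0.0504, 0.496, 0.18 and 0.567 CPM in H2O and 0.0963, 0.0533, 0.213, 0.0489 and 0.0765 CPM in Abx_SCFA, where 4 of 5 libraries were under the count floor.

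Nuclear genes of oxidative phosphorylation leaned to the higher side by a small amount, with 35 of 43 positive and a median of 0.05. In the higher direction 4 had p below 0.05 (9.30%, against 2.09% of all genes). Cox6a1, of cytochrome c oxidase, had 313.3, 313, 292.7, 276.8 and 302.8 CPM in H2O and 300.9, 288.8, 373.1, 350.8 and 393.3 CPM in Abx_SCFA. Abx_SCFA replicates 3, 4 and 5 were above every water library. Cyc1, of complex III, and Atp5d, of ATP synthase, were at 0.13 ± 0.055 and 0.16 ± 0.074. The members at p below 0.05 numbered 0 without Abx_SCFA replicate 3 and 1 without Abx_SCFA replicate 4, Abx_SCFA replicate 5, H2O replicate 3 or H2O replicate 4. Against the water rats of series 2 alone 34 of the 43 genes were negative (median -0.05), and 40 were positive against those of series 3 (0.13). The 42 ribosomal protein genes were centred on -0.01. Cholesterol synthesis and transport genes had a median of 0.03 over 26, with Abca1, the cholesterol efflux pump, at -0.29 ± 0.12. Abca1 was at -0.19 without H2O replicate 4, -0.14 when Abx_SCFA replicate 5 was dropped as well, and -0.03 against series 2 alone. Nr3c1, the glucocorticoid receptor gene, had 163, 175, 167, 173 and 154 CPM in H2O and 143, 154, 146, 158 and 147 CPM in Abx_SCFA (-0.15 ± 0.05, SE). The 2 groups overlapped by their outer libraries, and the value lay between -0.19 and -0.12 under all 24 alternatives. Its target Sgk1 varied widely in both groups (113 to 359 and 71.3 to 235 CPM). Of 18 clock genes, Clock was at -0.12 ± 0.054 and was the 1 with p below 0.05 (5.56%, against 3.46% of all genes on the lower side). Of 24 heat shock and stress genes, Dnajb5, a chaperone gene, and Chac1, a glutathione-degrading target of the stress factor ATF4, were at 0.20 ± 0.072 and 0.32 ± 0.15.

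Each agent given alone was measured in the same experiment, against the same water libraries, so these values are set side by side and are not independent. Of 12846 genes, edgeR had 714 at an unadjusted p below 0.05 for Abx_SCFA against H2O, 1129 for Abx and 1770 for SCFA. It called 0 in each of these comparisons. Rgcc was at 0.39 ± 0.079 in Abx_SCFA, 0.09 ± 0.084 in Abx and 0.17 ± 0.076 in SCFA (log2 fold change against H2O, SE). Vgf was at 0.49 ± 0.11, 0.28 ± 0.12 and 0.19 ± 0.11 in the same order, and Tpm2 at 0.44 ± 0.11, 0.26 ± 0.12 and 0.19 ± 0.11. Lurap1l and Zfp385a had like values in all arms, with 0.55 ± 0.17, 0.45 ± 0.18 and 0.52 ± 0.16 for Lurap1l and 0.21 ± 0.064, 0.17 ± 0.068 and 0.21 ± 0.062 for Zfp385a. Other genes had larger values in a single-agent arm. Kdm6b was at 0.21 ± 0.093, 0.35 ± 0.098 and 0.36 ± 0.089, and Cck at 1.74 ± 0.82, 2.10 ± 0.85 and 2.44 ± 0.81. Hcrtr1 was at 1.29 ± 0.38, 0.88 ± 0.41 and 1.56 ± 0.37. Xrn1 was at -0.30 ± 0.065, -0.16 ± 0.069 and -0.20 ± 0.062, and Cetn4 at -0.51 ± 0.13, -0.07 ± 0.14 and -0.15 ± 0.12. The vascular list had medians of 0.16, -0.09 and 0.07, the myelin list of -0.38, -0.63 and -0.20, the MHC list of -0.50, -0.80 and -0.50, and the pan spiny neuron list of -0.02, -0.04 and -0.29. Medians of the mRNA decay list, which holds Xrn1, were alike in all arms, at -0.06, -0.06 and -0.07. The cortical neuron list had medians of 0.61, 0.93 and 1.53 in the same order, and its part in the spiny neuron values was not tested in the single-agent arms. All arms share the high MHC and interferon values of H2O replicate 1.

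**Figure D4:**
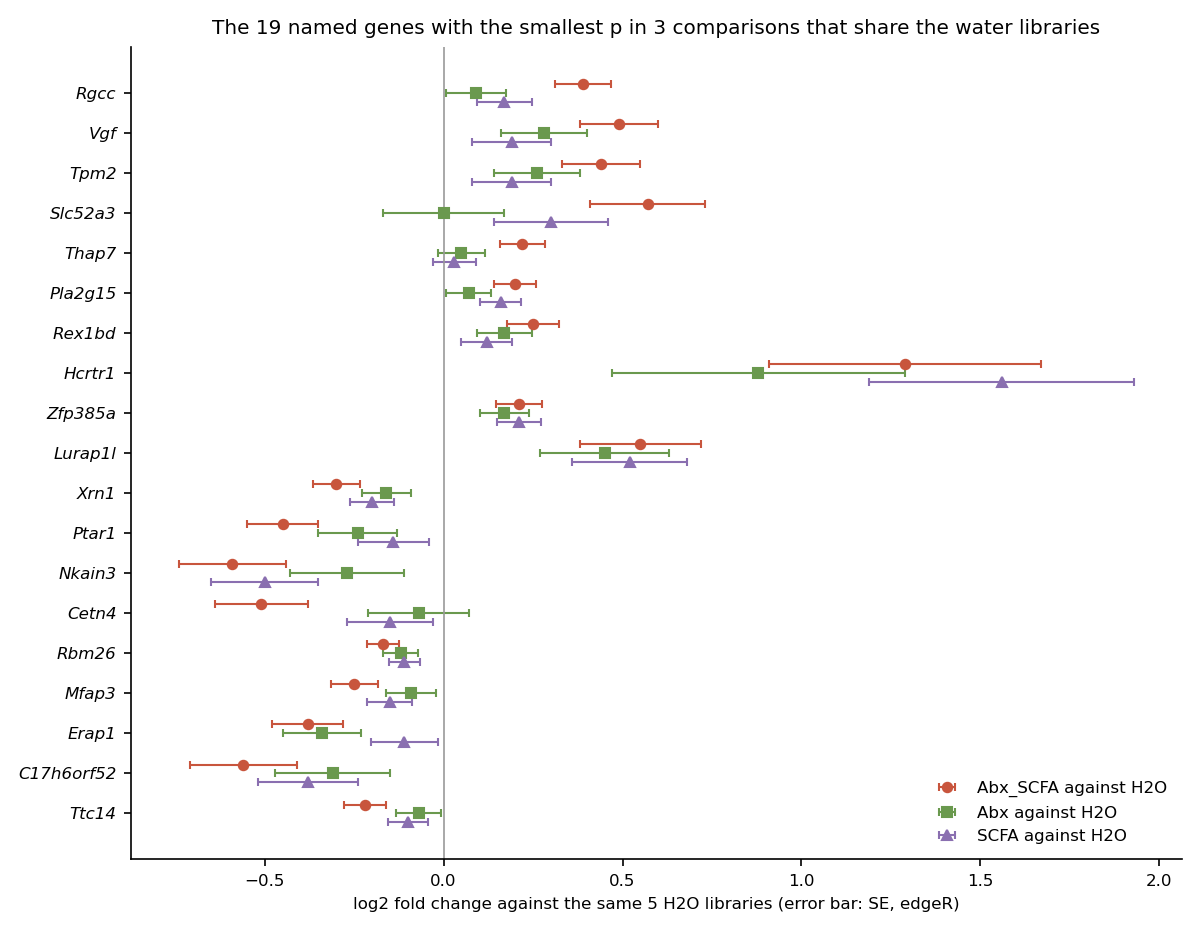
Log2 fold changes with SE against the same 5 water libraries for 19 named genes with the smallest p in the comparison of Abx_SCFA with H2O (circles), with the values of Abx (squares) and SCFA (triangles). The genes were picked for the circles, so that circles lying farther from 0, as for Rgcc (0.39 against 0.09 and 0.17), are in part a result of that choice.

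The direct tests against the single agents called 0 genes by edgeR. Against Abx the smallest adjusted p was 0.999, with 410 genes (3.19%) at an unadjusted p below 0.05, and DESeq2 and limma-voom also called 0. Cldn5 was at 0.43 ± 0.11 (SE) in this comparison (adjusted p = 0.999 by edgeR), Slc52a3 at 0.58 ± 0.17, Rgcc at 0.30 ± 0.084, Hbb at 0.77 ± 0.28 and Esam at 0.26 ± 0.094. The Abx rats are of series 2 and 3 and the Abx_SCFA rats of series 4. Added fatty acids and number series therefore cannot be told apart in the values against Abx. Against SCFA the smallest adjusted p was 0.285, with 871 genes (6.78%) at an unadjusted p below 0.05, and DESeq2 called 3 and limma-voom 0. The DESeq2 calls were Cend1, Dgcr2 and RragB. Without Abx_SCFA replicate 5 edgeR called 1 gene, Cend1, and the library left out is the one that goes against the call. Cend1 had 6.4, 6.08, 8.01, 8.56 and 0.306 CPM in Abx_SCFA and 0.192 to 0.554 CPM in SCFA, so that Abx_SCFA replicate 5 lay inside the SCFA range. Its low and high libraries also crossed the groups elsewhere, with 0.315 CPM in H2O replicate 4 and 4.85 to 7.35 CPM in the other water libraries. Drd1 and Drd2 were at 0.40 ± 0.17 and 0.41 ± 0.17 against SCFA, Pdyn and Penk at 0.37 ± 0.18 and 0.42 ± 0.20, Dcp2 at -0.36 ± 0.11, Thap7 at 0.18 ± 0.060 and Rgcc at 0.22 ± 0.075. Abx_SCFA and SCFA rats are all of series 4, so that number series does not differ in this comparison. The cortical marker Slc17a7 averaged 207.1 CPM in Abx_SCFA (132.4 to 338.7) and 407.6 CPM in SCFA (74 to 1059), a log2 fold change of -0.98 ± 0.96 (SE). The part of cortical content in the values against SCFA was not tested.

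How much libraries of different number series differ could be measured only in the groups that hold both. Among 9 H2O and Abx libraries, with treatment as a term, series 3 was compared with series 2, and edgeR called 0 of 12599 genes with a smallest adjusted p of 0.656. It had 531 genes (4.21%) at an unadjusted p below 0.05, beside the 714 of 12846 for the treatment. For Rgcc the difference between series was -0.02 ± 0.089 (SE), for Vgf -0.12 ± 0.13, for Tpm2 0.09 ± 0.13, for Xrn1 0.08 ± 0.067 and for Ptar1 0.06 ± 0.11. Ffar2 differed more, at -1.09 ± 0.34, as did Hbb at -0.70 ± 0.28 and Myl9 at 0.28 ± 0.11. Slc17a6 was at 1.43 ± 0.63. Without Abx replicate 3 this fit called 42 genes. Series 4 holds no water rats, so its own offset cannot be told apart from the treatment.

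Water libraries were more scattered than Abx_SCFA libraries in most gene lists. The SD of log2 CPM between libraries had a median of 0.148 over all genes in H2O and 0.130 in Abx_SCFA, and it was smaller in Abx_SCFA for 7691 of 12846 genes (59.9%, jackknife SE over libraries 14). That share is less than 1 SE from an even split. Wide gaps were seen in immune and neuronal lists. MHC genes had median SDs of 0.767 and 0.392, interferon genes 0.511 and 0.235, pan spiny neuron genes 0.205 and 0.109 (smaller in Abx_SCFA for 25 of 25) and immediate early genes 0.257 and 0.161 (35 of 40). Vascular and myelin genes went the other way, with 6 of 30 and 4 of 24 members smaller in Abx_SCFA. In the immune lists single water libraries stood apart. The mean log2 CPM of MHC genes was 4.55 and 3.83 in H2O replicates 1 and 5 and 2.70 to 3.09 in the other water libraries. That of interferon genes was 3.72 in H2O replicate 1 and 2.39 to 2.95 in the other water libraries.

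**Figure D5:**
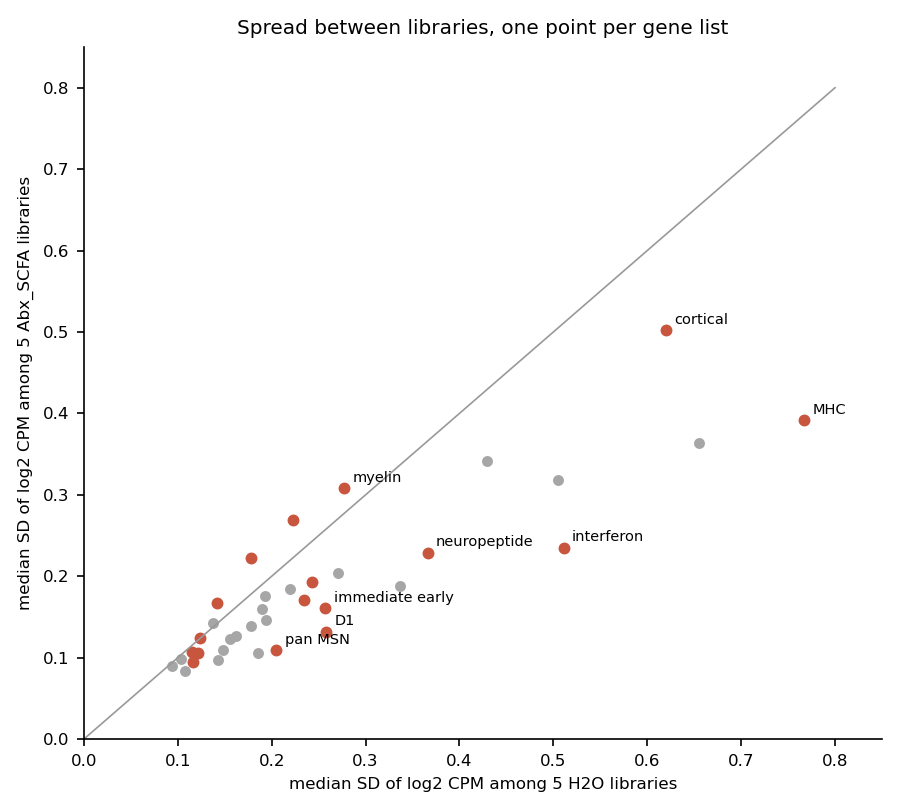
Median SD of log2 CPM of each of 36 gene lists among the 5 H2O libraries (x axis) and the 5 Abx_SCFA libraries (y axis), with the line of equal spread, and lists shown in other plots in red. Most lists lie under the line, MHC genes farthest (0.767 against 0.392), and myelin genes lie above it (0.277 against 0.308).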

How the data were processed

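Per the labels' protocols, accumbens RNA was extracted on columns, and polyA RNA was made into cDNA with a SMARTer kit. The authors' deposited table gives whole-number counts per gene symbol for 20 libraries. The submitters' processing notes name the build Rnor_6.0 and, among tools, STAR 2.4.0, FastQC 0.11.6 and limma. How reads were counted, on which strand and with which annotation was not given in the sources used here, so overlapping or antisense genes share reads uncertainly. The table holds 17296 symbols, 1822 at 0 in every library. No 2 libraries agreed within sampling noise (chi-square per gene at least 6.6 in 190 pairs), and each counted as 1 replicate. No source says that the rats are from separate cages, and p-values measure the spread between these samples.

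Groups came from the treatment labels. Replicate numbers follow accession order, and no libraries were paired. Genes were kept by filterByExpr (minimum count 10, minimum total 15). Genes were tested with edgeR 4.0.16 in R 4.3.3, by its quasi-likelihood method with robust dispersions. The 4 groups were fitted together on 20 TMM-scaled libraries (16 residual degrees of freedom), with Benjamini-Hochberg adjustment over 12846 genes and a threshold of 0.05. SEs were derived from the F statistic. A prior count of 2 was added for log2 CPM. Alternatives were DESeq2 1.42.0, limma-voom 3.58.1 with and without quality weights, RLE and upper-quartile scaling, other filters, the 2 groups alone, the water rats of 1 number series, cortical or myelin scores as covariates and each library left out.

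Named genes are the 10 with the smallest p in each direction (named symbol, mean of at least 1 CPM), up to 3 members of each list, by smallest p, and 17 genes given always. Others were named after their values were seen: Nptx2, Flt1, Ptgds, Tagln, Tjp1, Zfp36, Dis3, Cnot1, Cnot6, Cnot8, Cend1, Dgcr2 and RragB. To limit length not all list members are printed, and 1 gene the rule takes is not reported here. The 36 lists and the comparison were chosen with earlier results of these data known, and lists are described by counts and medians without a test. Promoters are RefSeq windows of GRCr8, matched by symbol for 9469 of 12846 tested genes. Counting floors of 3 counts and intervals cover counting error or library spread only, since the reads carry no molecular identifiers.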

Additional observations from a re-analysis of the deposited data

Results flagged for a closer look

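Single libraries far from the other 4 of their group were looked for in 190 groups of 5 (95 genes in H2O and in Abx_SCFA), and 17 were found. Chance flags about 1 in 20 groups when values are independent and normally distributed, which CPM of correlated genes are not, and 7 of the 17 come from 1 library. H2O replicate 5 stood out through cortical markers and through Cck and Bdnf: Slc17a7 at 251.6 CPM (others 3.09 to 32.8), Cck at 91.9 (5.46 to 16.6), Tbr1 at 35.5 (0.386 to 5.19), Neurod6 at 11.1 (0.418 to 1.71), Bdnf at 6.05 (0.105 to 0.906) and Neurod1 at 0.425 (0 to 0.101). The same library was also highest in Gfap, at 859.6 CPM (567.9 to 630.2). H2O replicate 1 stood out through Gbp2 at 72.4 CPM (5.29 to 7.26), Gbp5 at 21.6 (2.92 to 3.31), Lcn2 at 5.96 (1.91 to 2.52) and the astrocyte carrier gene Slc7a10 at 59.4 (44.3 to 47.9). H2O replicate 3 was low in Chac1, at 4.74 CPM (5.77 to 6.04).

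Within Abx_SCFA, replicate 2 was the high library for Gbp2 at 11.8 CPM (5.32 to 7.15) and for Gbp5 at 4.43 (2.60 to 3.10), both below H2O replicate 1, and the low one for Slc22a6 at 0.640 CPM (1.02 to 1.17). Replicate 5 was high in Esam at 37.9 CPM (29.4 to 31.6), and replicate 3 in Acot12 at 0.213 CPM (0.0489 to 0.0963), near the count floor. The causes were not tested.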

How the results depend on the processing

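Replicate numbers give only the accession order. No paired analysis was possible because the labels share no number between groups. Of the 95 genes followed, 75 kept 1 sign under every alternative, and Rgcc alone was called under one (DESeq2). The count of genes at an unadjusted p below 0.05 between Abx_SCFA and H2O (714) was 1145 with only the 2 groups compared, 2061 with quality weights, and 419 to 1174 with 1 library left out (438 without H2O replicate 4, 1174 without H2O replicate 5, 419 without Abx_SCFA replicate 5). It was 266 without H2O replicate 4 and Abx_SCFA replicate 5, and 1275 without H2O replicates 1 and 5, pairs chosen after seeing the data. The split of these genes moved with scaling: 37.7% were higher with TMM, 42.8% with RLE and 53.3% with upper-quartile scaling. DESeq2 called 1 gene here and 3 against SCFA. Against Abx the count (410) was 247 to 689 with 1 library left out (689 without Abx replicate 1, 617 without Abx_SCFA replicate 2, 247 without Abx_SCFA replicate 5). Against SCFA (871) it was 480 to 1535 (480 without SCFA replicate 2, 1535 without SCFA replicate 4, 561 without Abx_SCFA replicate 3), with 0 to 1 genes called. Between number series it was 291 to 1142, with 0 to 42 called (1142 and 42 without Abx replicate 3, 291 without Abx replicate 4).

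Signs turned as follows, all on the log2 scale and for values that had not passed. With the cortical covariate, Cnr1 was at -0.14, Foxp2 0.11, Fos -0.30, Gad2 0.04, Drd1 0.22 and Crhbp -0.10. With the myelin covariate, Slc16a1 was at 0.03 and Mbp 0.16. Against water rats of the series 2, Tnr was at 0.10, Hbb -0.32, Hdac1 0.01, Slc16a1 0.02, Sgk1 0.23, Drd2 -0.02, Pdyn -0.22, Penk -0.09, Mbp 0.08 and Gfap 0.002. Against those of the series 3, Drd1 was at 0.04, Ffar2 0.37, Gbp2 0.18 and Gbp5 0.04. With 1 or 2 libraries left out, Gbp2 ran from -1.66 to 0.23 and Gbp5 from -1.29 to 0.09 (0.18 and 0.04 without H2O replicate 1), RT1-Bb from -2.22 to 0.40, Hdac1 from -0.09 to 0.01, Ffar2 from -0.73 to 0.02, Pdyn from -0.03 to 0.13 and Penk from -0.03 to 0.13. The cause was not tested. Precision was limited by 5 libraries a group and, for Ffar2, Ffar3, Neurod1 and Acot12, by counts near the floor.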
